A study of Mus musculus with 2 samples.

Results

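Hox genes are homeobox genes that sit in 4 clusters in the mouse, and 39 of the 21938 protein-coding genes on assembled nuclear chromosomes carry a Hoxa, Hoxb, Hoxc or Hoxd symbol with a paralog number from 1 to 13. They were taken by symbol from the GENCODE annotation of mm10, with 11 in Hoxa, 10 in Hoxb, 9 in Hoxc and 9 in Hoxd. Chromatin accessibility over them was read from DNase-seq of retina, an assay that maps where the nuclease DNase I reaches the DNA. The samples form 1 group of 2 biological replicates, healthy retina tissue of the strain B6NCrl at embryonic day 14.5, from pooled male and female embryos. The replicates have separate biosample labels but a common donor label, and the labels list the Illumina HiSeq 2000 for replicate 1 only, so instrument and replicate cannot be told apart. No other tissue or condition belongs to the series, so values are described per library and no test between groups exists.

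Hox proteins are homeodomain transcription factors that give segments along the body axis their identity. Within a cluster the genes lie in the order of their paralog numbers, and low numbers act in hindbrain and neck while high numbers act in trunk, limb and tail. In the forebrain, of which the retina is an outgrowth, Hox genes are known to be mostly silent and bound by Polycomb proteins. CTCF, a zinc finger protein that binds DNA at insulators, is known to have sites within the Hox clusters.

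The sequences that follow show what lies under strong peaks of the clusters that both libraries share. They are a selection from the shared promoter peaks and other shared peaks with the highest lower rank in each cluster. Each is 150 bp of the mm10 plus strand, read 5′ to 3′ from the reference genome at the replicate 1 peak, and peaks that overlap an annotated UTR are not printed. Capitals mark matches on either strand to a looser form of the 12-base CTCF core, given by name only, or to the shorter string AGNNGGCGC, merged where they overlap. A match describes letters and is not a binding site shown by these data. The Hoxb5 promoter peak lies at chr11:96303156-96303305, and the Gm53 peak, in an exon of that lincRNA on the paralog 13 side of Hoxb9, at chr11:96261676-96261825. Between Hoxb8 and Hoxb9 lies chr11:96278916-96279065, which is intergenic. An exon of the antisense gene Hoxd3os1 holds chr2:74715896-74716045. The peak between Hoxc8 and Hoxc9 is chr15:102987536-102987685, inside an intron of the long Hoxc5 transcript. On the Hoxa13 side of Hoxa11 lies chr6:52257076-52257225. The Hoxd10 promoter peak at chr2:74691696-74691845 and the peak between Hoxa6 and Hoxa7 at chr6:52211656-52211805, in an intron of the long Hoxa3 transcript, hold neither string.
Hoxb5 promoter: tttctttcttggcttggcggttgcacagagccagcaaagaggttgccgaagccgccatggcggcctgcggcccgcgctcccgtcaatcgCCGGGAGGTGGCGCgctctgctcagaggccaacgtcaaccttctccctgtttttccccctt
Gm53 exon: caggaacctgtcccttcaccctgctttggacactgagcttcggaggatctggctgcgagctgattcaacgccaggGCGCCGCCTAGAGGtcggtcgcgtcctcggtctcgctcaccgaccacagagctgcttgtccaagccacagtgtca
Hoxb8 to Hoxb9: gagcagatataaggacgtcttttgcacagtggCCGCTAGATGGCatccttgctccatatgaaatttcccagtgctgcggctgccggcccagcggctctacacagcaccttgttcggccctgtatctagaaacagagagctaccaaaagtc
Hoxd3os1 exon: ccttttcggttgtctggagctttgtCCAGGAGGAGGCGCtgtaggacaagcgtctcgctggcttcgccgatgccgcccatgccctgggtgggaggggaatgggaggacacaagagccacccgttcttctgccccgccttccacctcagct
Hoxc8 to Hoxc9: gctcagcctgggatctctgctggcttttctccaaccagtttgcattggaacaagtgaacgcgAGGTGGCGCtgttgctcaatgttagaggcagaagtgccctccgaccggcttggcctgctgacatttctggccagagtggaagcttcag
Hoxa11 to Hoxa13: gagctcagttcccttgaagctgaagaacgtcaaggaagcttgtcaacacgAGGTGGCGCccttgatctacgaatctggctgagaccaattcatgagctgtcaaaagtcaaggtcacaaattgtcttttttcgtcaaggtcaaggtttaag
Hoxd10 promoter: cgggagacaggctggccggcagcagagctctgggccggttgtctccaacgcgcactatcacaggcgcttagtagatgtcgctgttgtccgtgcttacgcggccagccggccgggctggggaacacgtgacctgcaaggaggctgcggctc
Hoxa6 to Hoxa7: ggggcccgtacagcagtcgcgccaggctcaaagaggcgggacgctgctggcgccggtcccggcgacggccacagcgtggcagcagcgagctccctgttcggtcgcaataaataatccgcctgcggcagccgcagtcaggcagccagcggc

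Of 7 microRNA genes annotated in the clusters, 6 matched RefSeq (GRCm38.p6), and their mature 5p sequences fall into 3 seed families, with the seed, bases 2 to 8, in capitals. miR-196 is known to target the Hoxb8 transcript in the mouse, and miR-10 to target Hox transcripts in zebrafish. Mir196a-1 in Hoxb and Mir196a-2 in Hoxc encode the same mature sequence.
mmu-miR-10a-5p: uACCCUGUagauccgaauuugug
mmu-miR-10b-5p: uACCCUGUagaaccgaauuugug
mmu-miR-196a-5p: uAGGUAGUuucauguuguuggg
mmu-miR-196b-5p: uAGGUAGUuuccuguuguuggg
mmu-miR-615-5p: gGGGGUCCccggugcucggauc

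The label was checked against marker promoters, where a promoter reaches 1000 bp up and downstream of each annotated transcript start. All 10 retina markers had a promoter peak in both libraries, against 68.8% of all protein-coding genes. Of markers of other cells, 6 of 7 of periocular mesenchyme, 2 of 4 of muscle, 1 of 4 of endothelium, 0 of 4 of erythroid cells and 0 of 4 of microglia had one in both. All 4 markers of hindbrain and spinal cord did, with the highest promoter ranks at Egr2 (93.4 in replicate 1 and 94.5 in replicate 2). The median ratio of observed to expected CpG was 0.141 for erythroid, 0.182 for microglial and 0.590 for retina markers. Of all genes in the 3 lowest of 10 bins by this ratio, 8.84% to 32.6% were open in both libraries. The counts of markers therefore cannot separate cell type from CpG content. Replicate 1 alone had peaks at the erythroid marker Klf1 (rank 14.8) and the microglial marker Csf1r (rank 40.7), and the part of any other cell type in the Hox values was not tested. Replicate 1 had 165269 peaks and replicate 2 had 219308, the files hold no read numbers, and the depth of both libraries is therefore unknown.

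A smaller share of Hox promoters than of all protein-coding promoters held a peak, and the open Hox promoters had a lower median rank. Of the 39 Hox genes, 24 had a promoter peak in replicate 1, against 69.7% of all 21938 genes, and 21 had one in replicate 2, against 71.3%. Both libraries agreed on 17 open Hox promoters (43.6%), against 68.8% of all genes, and on 11 without a peak. The mean was 22.5 ± 2.12 open Hox promoters (SD, n = 2). In bulk tissue, fewer cells with an open site and weaker opening in every cell cannot be told apart. The rank of a peak is the percentile of its deposited score among all peaks of its library, with 100 the strongest. Among open genes the median rank of the strongest promoter peak was 80.9 for Hox and 95.0 for all genes in replicate 1. In replicate 2 it was 80.5 for Hox and 95.9 for all genes. The highest Hox promoter rank was 95.9 in either library.

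The Hox promoters were not poor in CpG, the sequence feature that goes with open promoters across the genome. The median ratio of observed to expected CpG within 500 bp of the 5′ end was 0.678 over the Hox genes and 0.552 over all genes. When all genes were cut into 10 equal bins by this ratio, 11 Hox genes fell into the sixth, where 5 of them and 94.3% of all genes were open in both libraries. The top 3 bins held 12 Hox genes, and 6 of these were open in both, whereas 99.0% to 99.2% of all genes in these bins were. Hoxc12, a posterior gene, had no peak in either library at a ratio of 0.891, and Hoxb7 had none at 0.834. Hox genes open in both libraries had a median ratio of 0.704, and those open in neither 0.633.

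**Figure D1:**
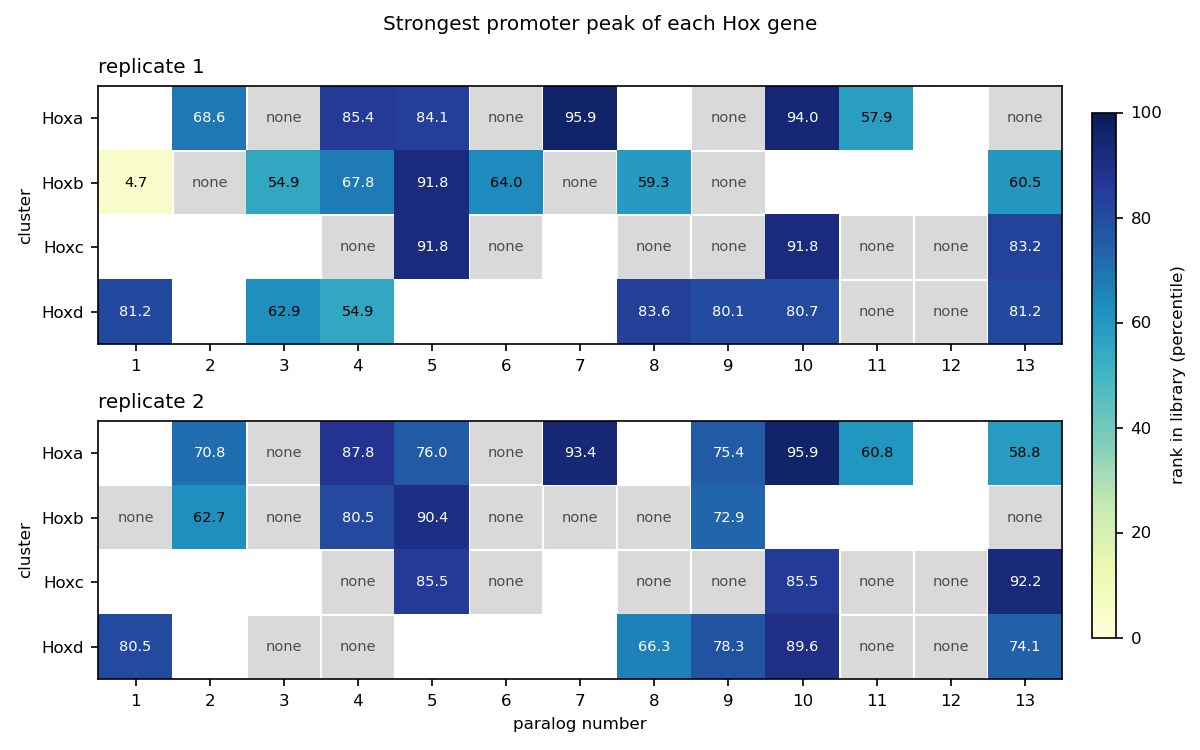
Rank of the strongest promoter peak of each Hox gene, by cluster (rows) and paralog number (columns), in replicate 1 (top) and replicate 2 (bottom). Grey cells are genes without a promoter peak and blank cells are paralogs the cluster lacks or that are not shown; the columns of paralogs 5 and 10 are filled in both libraries and that of paralog 12 in neither.

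Open promoters lay in every section of the clusters. Of the 12 genes of paralogs 1 to 4, 5 were open in both libraries, as were 5 of the 11 of paralogs 5 to 8 and 7 of the 16 of paralogs 9 to 13. Paralog groups 5 and 10 were open at all 3 of their genes in both libraries, while group 12 (Hoxc12 and Hoxd12) was open at 0 of 2 in either. Groups 3 and 6 had 0 of 3 open in both libraries. These groups hold 2 to 4 genes each, and no test was made of their order. By library, paralogs 9 to 13 had 8 of 16 open in replicate 1 and 10 of 16 in replicate 2, and paralogs 1 to 4 had 9 of 12 and 6 of 12.

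Among the anterior genes, Hoxa2, which patterns the second pharyngeal arch, scored 44 in replicate 1 (rank 68.6) and 69 in replicate 2 (rank 70.8). Its promoter window was also largely hotspot, the broader regions of cutting that the authors called. Hotspots covered 51.4% of the window in replicate 1 and 81.8% in replicate 2. Hoxd1 scored 64 in replicate 1 and 85 in replicate 2, with ranks of 81.2 and 80.5. Hoxb1, which sets the identity of a hindbrain segment, had only a score of 10 in replicate 1 (rank 4.65) and no promoter peak in replicate 2.

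Paralogs 3 and 4 differed between clusters. Hoxa4 scored 73 in replicate 1 (rank 85.4) and 100 in replicate 2 (rank 87.8), and Hoxb4 scored 43 (rank 67.8) and 85 (rank 80.5). Hoxc4 had no peak in either. Hoxd3 and Hoxd4 had 9 and 6 promoter peaks in replicate 1, the strongest at scores of 38 and 32, and none in replicate 2. These 2 genes share annotated starts, so some of their peaks are counted for both. Hoxa3 had none in either library, and Hoxb3 had 1, of score 32, in replicate 1 alone.

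Of the middle genes, those of paralog group 5, which act in the neck and upper trunk, were the most regular. Hoxb5 scored 92 in replicate 1 and 106 in replicate 2, with ranks of 91.8 and 90.4. Hoxa5, known for its part in lung and neck skeleton, scored 70 and 77, with ranks of 84.1 and 76.0. The top peak of Hoxc5 is that of Hoxc10, because an annotated Hoxc5 transcript starts there. At its own start Hoxc5 had a peak of score 44 in replicate 1 (rank 68.6) and 71 in replicate 2 (rank 72.2). Hoxa7 had the strongest promoter peak of all Hox genes in replicate 1, a score of 112 (rank 95.9), and 115 in replicate 2 (rank 93.4), at an alternative start 3793 bp from the coding start. Hoxa6, Hoxb7, Hoxc6 and Hoxc8 had no promoter peak in either library.

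In the posterior genes, strong and absent promoters lay side by side. Hoxa10, a regulator of lumbar vertebrae and uterus, scored 102 in replicate 1 (rank 94.0) and 125 in replicate 2 (rank 95.9). Its neighbour Hoxa9 had no peak in replicate 1 and a score of 76 in replicate 2 (rank 75.4). Hoxc10 scored 92 and 95, at ranks of 91.8 and 85.5, while Hoxc9 and Hoxc11 on either side of it had none. Hoxd10, which acts in lumbar motor neurons, scored 63 in replicate 1 (rank 80.7) and 104 in replicate 2 (rank 89.6). Hoxd11 next to it and Hoxd12 beyond had none, whereas Hoxd9 on its other side scored 62 (rank 80.1) and 81 (rank 78.3). Of the terminal genes, Hoxc13, known for hair and nail growth, scored 68 (rank 83.2) and 111 (rank 92.2), and Hoxd13, which shapes the digits, scored 64 (rank 81.2) and 74 (rank 74.1). Hoxa13 had a promoter peak in replicate 2 alone (score 55) and Hoxb13 in replicate 1 alone (score 36).

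The 11 genes open in one library only had promoter ranks from 4.65 (Hoxb1) to 75.4 (Hoxa9). Of these genes, 7 were open in replicate 1 and 4 in replicate 2. In Hoxb this concerned 7 of the 10 genes, and only Hoxb4 and Hoxb5 were open in both libraries. In Hoxc the same 3 genes were open in both libraries and 6 were open in neither. Of the 11 genes without a promoter peak, Hoxc9 and Hoxa3 still had one at the coding start. For both, the coding start lies over 1 kb from any annotated transcript start of the same gene. At Hoxc9 it lay 117 bp away in replicate 1 (score 48, rank 71.7) and 83 bp away in replicate 2 (score 75, rank 74.8), without overlap. At Hoxa3 it lay 81 bp away in replicate 2 alone (score 88, rank 82.1), and 151 bp from the start of the antisense gene Gm15050. When only the transcript start next to the coding start was used, a choice made after the annotation was read, replicate 1 had 21 open Hox genes and replicate 2 had 19, with 16 in common. The share over all genes was not computed with this choice, so these counts cannot be set against the shares given above.

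**Figure D2:**
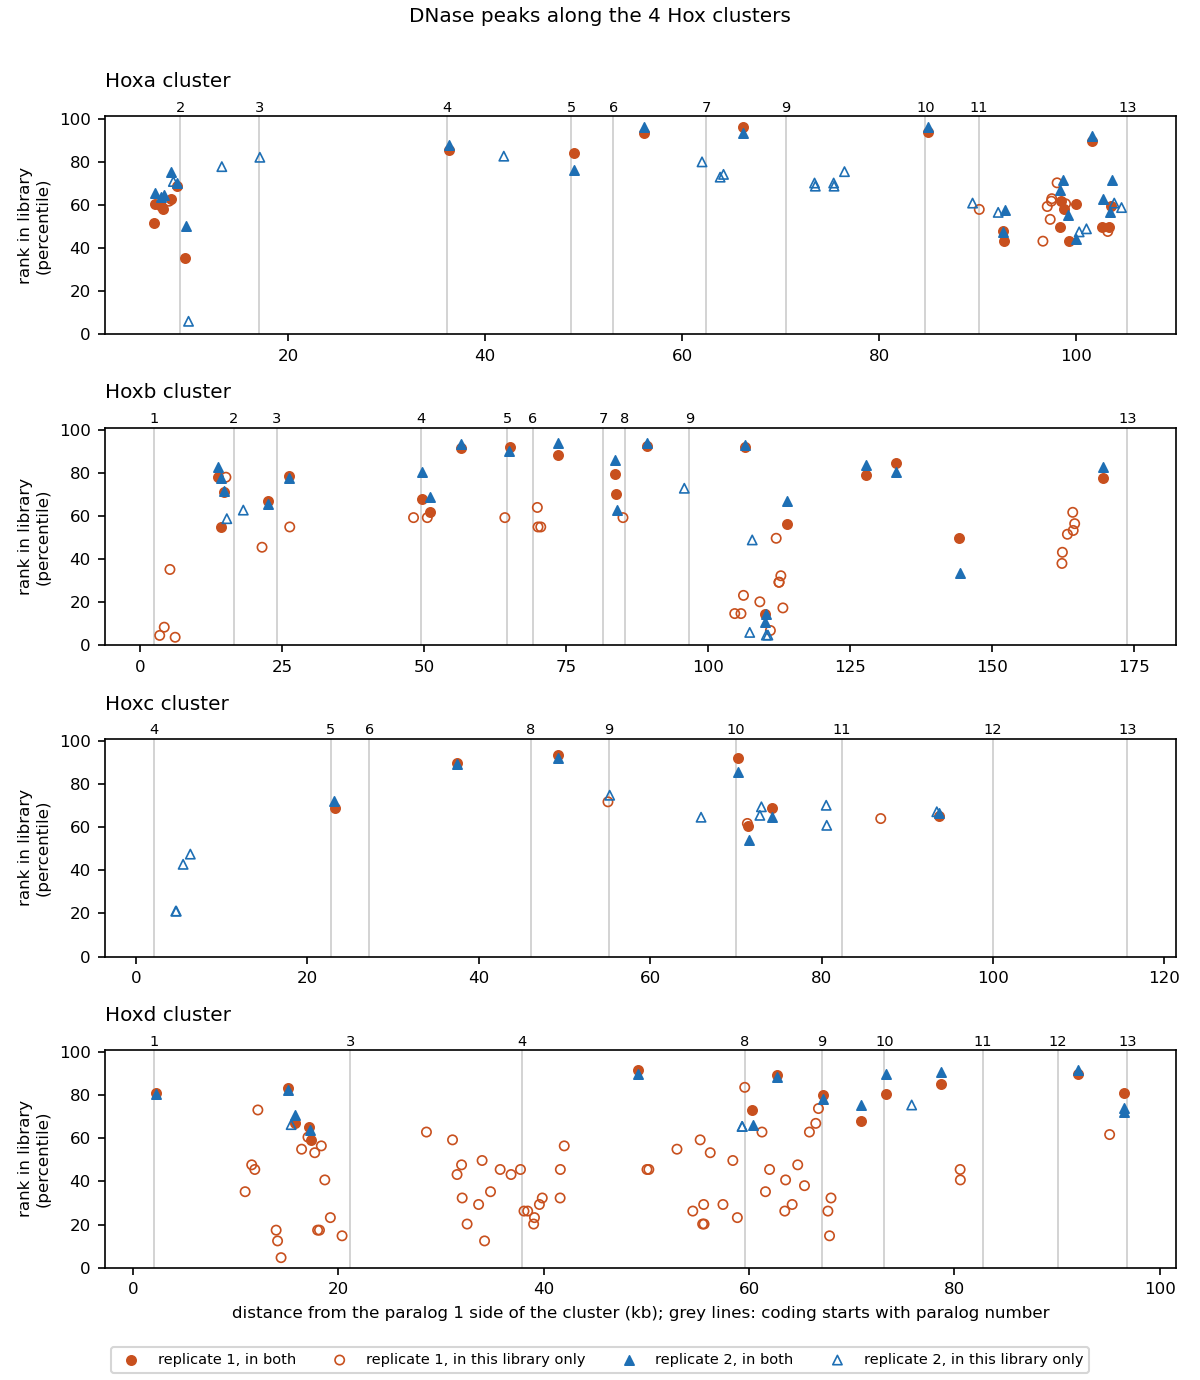
Peaks in the 4 clusters, with Hoxa drawn from Hoxa2 on, by distance from the paralog 1 side (x, kb) and rank within its library (y, percentile). Circles are replicate 1, triangles replicate 2, filled where the libraries overlap by at least 1 bp, and grey lines are coding starts; the open circles of Hoxd between paralogs 1 and 9 belong to the 68 peaks seen in replicate 1 alone.

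Pooled over the 4 clusters, peaks per length were higher than in the flanks and the genome. By the cluster edges used, however, Hoxc lay below both of its flanks in each library. Hoxb and Hoxd lay below their paralog 13 sides in replicate 2. In total the clusters, 491.815 kb together, held 183 peaks in replicate 1 and 118 in replicate 2, or 37.2 and 24.0 per 100 kb. Peaks of a library can overlap one another, so these are numbers of calls and not of separate sites. The 200 kb flanks on both sides held 11.3 and 19.6 per 100 kb, and the assembled nuclear chromosomes 6.06 and 8.04. Cluster peaks had a median rank of 54.9 in replicate 1 and 68.7 in replicate 2, against 54.9 and 51.7 in the flanks. Hoxc held 8.64 per 100 kb in replicate 1, against 16 on its paralog 1 side and 12 on its paralog 13 side, and 15.6 in replicate 2, against 19 and 16. The cluster edge is the start of Hoxc13, so its shared promoter peak counts in the paralog 13 flank. The gap to that flank in replicate 2 is small enough to depend on this edge. With clusters extended by 10 kb, the mean Hoxc density was 14.0 (SD 6.25), against 12.1 without. Hoxb held 16.1 in replicate 2, against 17.5 on its paralog 13 side and 12.5 on its paralog 1 side. For Hoxd in replicate 2 the value was 18.6, against 23 on its paralog 13 side and 8.5 on its paralog 1 side. Of cluster peaks in replicate 1, 38.3% overlapped a peak of replicate 2, against 71.8% in the flanks and 73.2% genome-wide. This share was low in Hoxd (17.1%) and Hoxb (20 of 50 peaks), while in Hoxa (70.7%) and Hoxc (70.0%) it was near the genome value. In the other direction 57.6% of replicate 2 cluster peaks overlapped, against 40.8% in the flanks and 53.9% genome-wide. Scores written in decimal form, which were lower genome-wide, made up 20.8% of cluster peaks in replicate 1 and 12.7% in replicate 2, against 12.1% and 7.80% genome-wide, and their part in these shares was not tested.

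**Figure D3:**
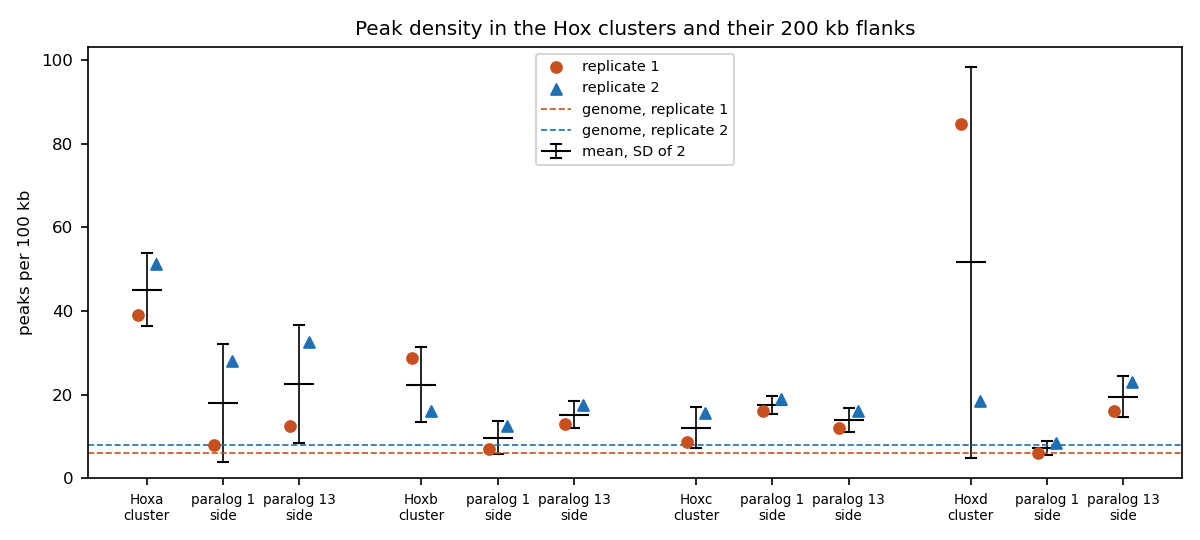
Peaks per 100 kb in each Hox cluster and in the 200 kb on its paralog 1 and paralog 13 sides, per library, with mean and SD over 2 libraries. Dashed lines are the genome values of 6.06 and 8.04; Hoxd stands at 84.7 in replicate 1 and 18.6 in replicate 2.

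The Hoxd cluster, on chromosome 2 from 74668310 to 74765142, carried the largest difference. It held 82 peaks in replicate 1 and 18 in replicate 2, or 84.7 and 18.6 per 100 kb, with overlapping calls in both libraries. Hoxb (chromosome 11, 96194316 to 96368256) also had more in replicate 1, with 50 and 28 peaks. Hoxa (chromosome 6, 52155590 to 52260880) had 41 in replicate 1 and 54 in replicate 2, and Hoxc (chromosome 15, 102921103 to 103036852) had 10 and 18. The ratio of replicate 1 to replicate 2 was 4.56 in Hoxd, 1.79 in Hoxb, 0.759 in Hoxa and 0.556 in Hoxc, and 0.753 over the genome. Above the median score of each library, Hoxd still held 31 peaks in replicate 1 and 18 in replicate 2, a ratio of 1.72.

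Windows of 100 kb tiled over the genome, a comparison chosen after these values were seen, show how common such densities are. In replicate 1, windows at least as dense made up 0% of 27247 for Hoxd, where the densest window held 81 peaks, 0.385% for Hoxa, 1.15% for Hoxb and 26.7% for Hoxc. In replicate 2 they made up 8.64% for Hoxd, 0.139% for Hoxa, 12.2% for Hoxb and 14.4% for Hoxc. The windows lie on a fixed grid, whereas each cluster was measured from edge to edge, so the 2 densities are not alike. On the grid, the window with Hoxd1 to Hoxd9 held 69 peaks in replicate 1 and 10 in replicate 2. The window at Six2 and Six3 held 81 and 98. Among the 1420 windows with 40 or more peaks over both libraries, 1.13% had a ratio of replicate 1 to replicate 2 at least that of Hoxd and 4.51% at least that of Hoxb. A ratio at most that of Hoxa was found in 32.2%. The Hoxd window itself and 15 windows without a Hox gene passed the Hoxd ratio, so such a stretch was not particular to Hoxd. Among those others, the window at Serinc5 held 66 peaks in replicate 1 and 9 in replicate 2, and that at Csmd2 66 and 7. These genes were chosen after their values were seen.

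The Hoxd peaks of replicate 1 filled the side of the cluster that holds Hoxd1 to Hoxd9. Between the coding starts of Hoxd9 and Hoxd3, 45.956 kb apart, replicate 1 had 49 peaks and replicate 2 had 5, of which 3 were shared. Their scores ran from 15 to 92 with a median of 26 in replicate 1, and from 62 to 104 with a median of 63 in replicate 2. Hotspots covered 30.6% of that stretch in replicate 1 and 2.39% in replicate 2, and 12 of the hotspots in replicate 1 had reached the ceiling of 100 on the −log10 q scale. The interval from Hoxd8 to Hoxd9 was covered at 83.7% in replicate 1 and 7.66% in replicate 2. From Hoxd3 to Hoxd4, replicate 1 had 13 peaks and replicate 2 had 0. Toward the other end, from Hoxd12 to Hoxd13, both libraries had 3 peaks, which in replicate 2 include overlapping calls at the Hoxd13 promoter. From Hoxd11 to Hoxd12 neither had any. Of the 82 Hoxd peaks in replicate 1, the 14 shared ones had a median rank of 80.9 and the 68 unshared ones 40.7.

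Hoxa had a different layout, with a dense patch toward Hoxa13 and few, strong sites in the middle of the cluster. From Hoxa11 to Hoxa13, 15.055 kb, there were 20 peaks in replicate 1 and 15 in replicate 2, with hotspot cover of 23.7% and 22.9%. Of these, 11 in replicate 1 and 10 in replicate 2 were shared. Each of the 4 intervals between Hoxa4 and Hoxa9 held 1 peak in replicate 1, and every one of these was shared. Replicate 2 added 5 peaks between Hoxa9 and Hoxa10, where replicate 1 had 0.

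**Figure D4:**
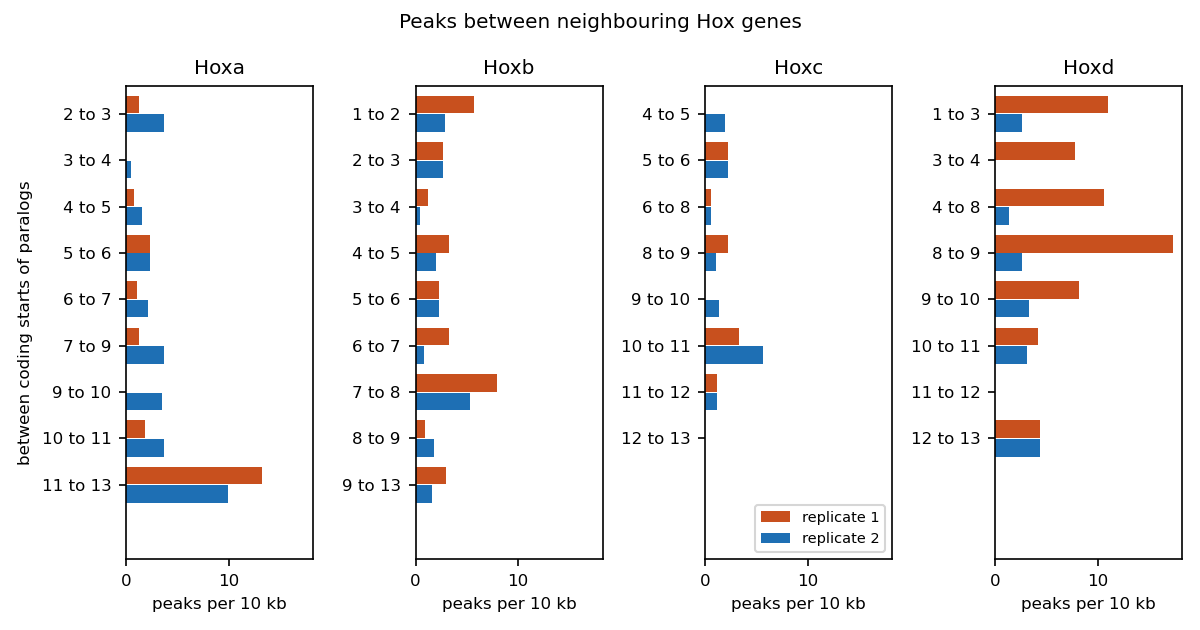
Peaks per 10 kb between the coding starts of neighbouring Hox genes in replicate 1 (orange) and replicate 2 (blue), ordered by paralog number, with Hoxa drawn from Hoxa2 on. Hoxa11 to Hoxa13 is dense in both libraries (13.3 and 9.96), while Hoxd8 to Hoxd9 is dense in replicate 1 (17.4) and not in replicate 2 (2.67).

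Over all 35 intervals between neighbouring Hox genes, 28 held a shared peak, 14 had more peaks in replicate 1, 12 had more in replicate 2 and 9 had equal numbers. Only Hoxd11 to Hoxd12 and Hoxc12 to Hoxc13 had none in either library. The longest run without a peak in either library was 21.933 kb in Hoxc and held the coding starts of Hoxc12 and Hoxc13. It was 21.65 kb in Hoxb, between Hoxb4 and Hoxb3, 19.07 kb in Hoxa, with the coding start of Hoxa4, and 11.29 kb in Hoxd, with those of Hoxd11 and Hoxd12. In replicate 2 alone, Hoxd had a run of 31.77 kb that held the coding starts of Hoxd3 and Hoxd4.

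The hotspot cover of whole clusters followed the same division. It was 23.5% of Hoxd in replicate 1 and 4.27% in replicate 2, 10.4% and 15.7% of Hoxa, 6.83% and 4.59% of Hoxb, and 2.62% and 3.94% of Hoxc. Genome-wide it was 2.01% and 2.98%. Hoxc was thus near the genome value in both libraries. Median hotspot widths were 201 bp in replicate 1 and 279 bp in replicate 2 in Hoxd, and 344 bp and 251 bp in Hoxc.

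Flanks were denser on the paralog 13 side than on the paralog 1 side in Hoxa, Hoxb and Hoxd in both libraries. For Hoxd the 2 sides held 16 and 6 peaks per 100 kb in replicate 1, and 23 and 8.5 in replicate 2. For Hoxc the order was turned, with 12 on the paralog 13 side and 16 on the paralog 1 side in replicate 1, and 16 and 19 in replicate 2. The 15 protein-coding genes with a start in a flank were open in 13 cases in each library, the same 13 in both, against 69.7% and 71.3% of all genes by library and 68.8% in both. Their median ranks were 94.0 and 95.7. Gip, an incretin hormone gene, and Calcoco2 had no promoter peak. The lowest open ones were Skap1, an adaptor protein gene beside Hoxb, at 23.2 in replicate 1 and 37.5 in replicate 2, and 2 homeobox genes, Evx1 next to Hoxa13 at 57.9 in replicate 1 and 65.5 in replicate 2, and Evx2 next to Hoxd13 at 69.5 and 67.1. In 6 of the 8 flanks the strongest shared peak lay within 200 bp of a start of a flank gene (Skap2, Atp5g1, Smug1, Calcoco1, Mtx2 or Lnpk).

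Each replicate 1 cluster peak that overlapped a replicate 2 peak was counted as 1 shared pair. This gave 70 pairs, 29 in Hoxa, 20 in Hoxb, 7 in Hoxc and 14 in Hoxd. Some replicate 2 peaks belong to more than 1 pair, and 68 replicate 2 cluster peaks were shared. The 11 pairs with the highest lower rank, of which the last 2 were tied, spanned 89.6 to 94.0 and came from all 4 clusters, and 3 of them overlapped a Hox promoter, those of Hoxa10, Hoxa7 and Hoxb5. The peak between Hoxa6 and Hoxa7, printed above, scored 98 in replicate 1 and 125 in replicate 2. That between Hoxc8 and Hoxc9 scored 99 and 111, and that between Hoxb8 and Hoxb9 scored 94 and 116. The Gm53 peak scored 92 and 114 and the Hoxd3os1 peak 92 and 104. Several of these pairs had the same start in both libraries, those of Hoxa10, Gm53 and Hoxd3os1 among them. Peak starts in the clusters fall on regular steps in both libraries, so an equal start means the same step.

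Matches to CTCF consensus strings sat among the strong shared peaks. The CTCF core, 12 bases searched on both strands, was found in 3 of 183 cluster peaks in replicate 1 (1.64%) and 3 of 118 in replicate 2 (2.54%), against 5.28% and 4.51% of all peaks and 0.733% of 3276 tiles of 150 bp over the clusters. The looser core, of the same length with 1 more base free, was found in 4.37% and 6.78% of cluster peaks, against 12.1% and 10.8% of all peaks and 2.66% of tiles. Among peaks with a rank above 90, it was in 6 of 10 cluster peaks in replicate 1 and 6 of 12 in replicate 2, against 17.5% and 16.9% of all peaks of that rank. The string AGNNGGCGC, chosen after the sequences of the strongest peaks were read, was in 6.01% and 9.32% of cluster peaks, against 5.22% and 4.29% of all peaks and 1.62% of tiles. Of the 11 strongest shared pairs, 8 held the looser core or that string, as did 4 of the other 59 pairs. Either was also in 2 of 113 unshared cluster peaks in replicate 1 and 1 of 50 in replicate 2. Over the genome, 25.7% of shared peaks ranked at least 89.6 held either in replicate 1 and 24.0% in replicate 2. These genome peaks were taken by rank in that library alone, a looser choice than the lower rank used for the pairs. The count of 8 partly describes the peaks the string was read from.

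**Figure D5:**
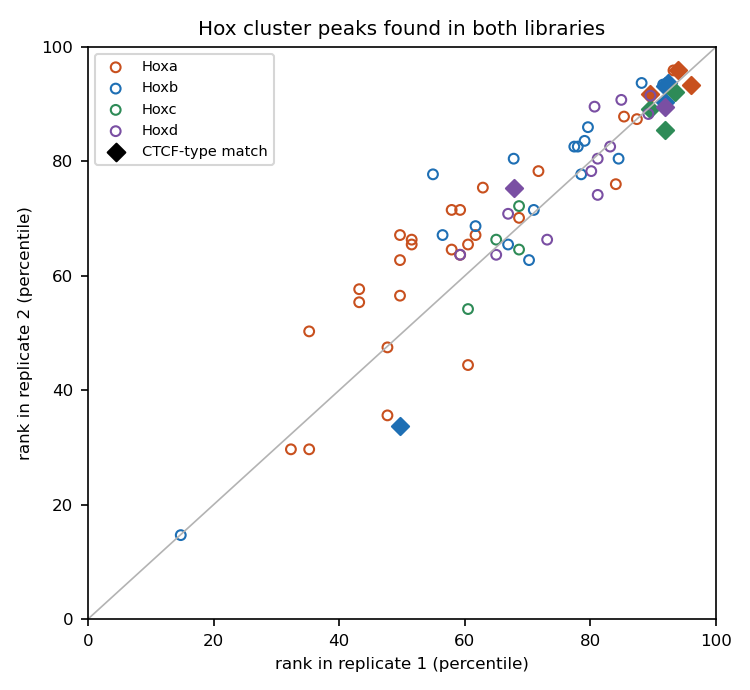
Rank in replicate 1 (x) against rank in replicate 2 (y) of the 70 shared pairs of Hox cluster peaks, 1 for each shared replicate 1 peak, coloured by cluster, with the line of equal rank. Diamonds hold the looser CTCF core or AGNNGGCGC; 8 of the 11 strongest pairs, all at rank 89.6 or above, are diamonds, and 4 of the other 59.

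Non-coding genes inside the clusters had open and closed starts. Replicate 1 had promoter peaks at 15 of the 25, against 34.2% of the 11995 genes of the same 5 annotation types over the genome. Replicate 2 had them at 12, against 38%, and 10 were common to both, against 32.3%. Gm53 (ranks 91.8 and 93.1), Hoxd3os1 (91.8 and 89.6), Haglr (83.2 and 82.6) and Hoxb3os (78.0 and 82.6) were open in both libraries. Hotair, the Hoxc lincRNA whose human counterpart is known for binding Polycomb proteins, had none in either. Of the microRNA genes, Mir10a near Hoxb4 had peaks in both libraries, with scores of 37 (rank 61.7) and 66 (rank 68.7). Mir10b near Hoxd4 had 6 peaks in replicate 1, the strongest of score 22 (rank 32.3), and none in replicate 2, where the nearest peak lay 10100 bp away. Mir196b had 3 peaks in replicate 2 alone, while Mir196a-1, Mir196a-2 and Mir615 had none in either. These windows surround the start of the annotated precursor, which need not be where transcription starts. Mir10a and Mir10b differed in whether a peak was called in replicate 2 only, as did Mir196b and the Mir196a genes.

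Genes that act with or upstream of Hox genes are read here against 68.8% of all genes open in both libraries, and 94.3% to 99.2% in the CpG bins from the sixth up. Not all members lie in those bins. Rarb had a CpG ratio of 0.100, and 8.84% to 32.6% of all genes in the 3 lowest bins were open in both libraries. All 12 upstream regulators and retinoic acid genes had a promoter peak in both libraries, among them Rarb (ranks 95.2 and 94.5), a retinoic acid receptor, and Gdf11 (94.2 and 95.9), a trunk patterning ligand. So did all 9 TALE cofactors, which bind DNA with Hox proteins, among them Pknox1 (99.67 and 99.96) and Pbx3 (99.6 and 99.3). All 17 Polycomb and Trithorax genes were open too, led by Suz12 (99.98 in both), Cbx8 (99.9 and 99.7) and Ezh2 (99.96 and 99.5). The ParaHox and Evx genes, the closest relatives of the Hox genes on the list, were open at 5 of 8 genes in replicate 1 and 7 of 8 in replicate 2, 4 of them in common, with Gsx1 highest (82.7 and 87.8). Of other homeobox clusters and pairs, 6 of 6 Dlx genes and 5 of 6 Irx genes were open in both libraries, with median ranks of 87.0 and 85.8 for Dlx and 90.5 and 93.1 for Irx.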

How the data were processed

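DNase-seq of 2 retina libraries was analysed as 1 group of 2 replicates, from 1 peak list and 1 hotspot list per library. The authors deposited peaks of 150 bp with a score from 1 to 150 whose meaning is not stated, which was used only to rank peaks within a library. The hotspot lists, per the file headers and values, give a −log10 q-value from 1.30 to 100 for each hotspot. The files are on mm10 per the labels; the sources used here name neither the aligner nor the caller. Exact duplicate lines were removed (34 in replicate 1 and 56 in replicate 2).

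A peak belonged to a cluster or flank by its middle base, and overlapping peaks of a library were not merged. The cluster ran from the start of its outermost Hox gene to the end of the other, and shared peaks overlapped by at least 1 bp. Starts came from GENCODE M21 on GRCm38, the assembly of mm10. Scripts ran on Python 3.11.15 with pandas 2.3.3, pysam 0.24.0 and matplotlib 3.10.9, and the overlap and motif steps were tested on simulated data. The rule for naming took all 39 Hox genes and, from pathway lists, at most the 3 highest by lower-library rank, with those without a peak in either; some of these items are not reported here. Members, lists, motifs and alternatives were chosen with earlier results of these data known. Peak lists hold no counts, so no detection limit was computed, and values are per library or mean and SD. Alternatives covered promoter windows, peak strength, cluster edges, flank length, overlap, hotspot thresholds and motif strings.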

Additional observations from a re-analysis of the deposited data

How the results depend on the processing

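The number of Hox genes with a promoter peak, 22.5 on average, was 19.5 with windows of 500 bp, 29 with 2000 bp and 20 with the start next to the coding start, a setting added after seeing the annotation. Each of these moved by over 1 SD (2.12) and stayed within 1.5 times. The share of all genes was not computed at these settings, so whether Hox genes stay below it there was not tested. Without each replicate in turn, the number of Hox genes with a promoter peak was 21 to 24. Peak density per 100 kb was then 38.9 to 51.3 in Hoxa and 16.1 to 28.7 in Hoxb. It was 8.64 to 15.6 in Hoxc and 18.6 to 84.7 in Hoxd. Flank density was then 10.25 to 30.25 for Hoxa, 10 to 15 for Hoxb, 14 to 17.5 for Hoxc and 11 to 15.75 for Hoxd. The shared share was 38.3% to 57.6%, the median rank 54.9 to 68.7, and the share with the CTCF core 1.64% to 2.54%. Hotspot cover was 10.4% to 15.7% in Hoxa, 4.59% to 6.83% in Hoxb, 2.62% to 3.94% in Hoxc and 4.27% to 23.5% in Hoxd. Other values that moved by over 1 SD follow. With peaks above the median score only, Hoxa density was 31.8, and the flanks of Hoxb, Hoxc and Hoxd were at 7.75, 10.375 and 7.125. With whole-number scores only, Hoxa density was 36.1. Flanks of 100 kb gave 11.75 for Hoxc and 18.75 for Hoxd, and flanks of 500 kb gave 17.3 for Hoxb. An overlap of 120 bp gave a shared share of 30.7%. Hotspots with −log10 q of at least 10 or 50 covered 8.80% of Hoxa, 2.91% of Hoxb and 1.70% of Hoxc. The CTCF share was 5.58% with the looser core, 0% with a stricter core and 7.67% with AGNNGGCGC, a string added after seeing the data. These settings keep fewer or more features by construction. No paired analysis was possible because the series has 1 group. Read depth is unknown, and 2 libraries give an SD with 1 degree of freedom, so a missing peak shows only that none was called in that library.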

Other observations

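Other motif strings were searched on both strands in the 183 cluster peaks of replicate 1 and the 118 of replicate 2. The homeodomain string TAATTA was found in 2 peaks in replicate 1 (1.09%) and 8 in replicate 2 (6.78%), against 4.69% and 6.04% of all peaks and 3.24% of cluster tiles. Of the 8 in replicate 2, 7 were in peaks seen in that library alone. The Hox-Pbx string TGATTNAT was found in 2.19% and 2.54% of cluster peaks, against 1.87% and 2.28% of all peaks and 2.05% of cluster tiles. The Cdx string TTTATNG was found in 4.92% and 5.08%, against 4.80% and 5.34% of all peaks and 8.97% of cluster tiles. A retinoic acid response element of the direct repeat 5 type was found in 0 cluster peaks in either library, against 0.102% and 0.120% of all peaks and 3 of the 3276 cluster tiles.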
